A study of Mus musculus with 16 samples.

Results

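Exon regions are the stretches of the genome where 5-hydroxymethylcytosine (5hmC) reads piled up over coding or internal exons of a gene, away from its promoter and its untranslated ends. They were taken from a table of 177720 regions by the gene-part annotation that comes with it: a region belonged to the class when it overlapped an exon and no promoter, 5′ UTR or 3′ UTR. This gave 17089 regions, 9.62% of all, of which 14236 (83.3%) held enough reads to be tested and 2853 did not. The regions were measured in CD4 T cells of C57BL/6 Foxp3-eGFP reporter mice aged 5 to 6 weeks, from spleen and lymph nodes. Every group therefore carried the reporter, which marks cells that express Foxp3, the lineage factor of regulatory T cells (Treg). The naive group was sorted as CD4+eGFP-CD25-CD62LhiCD44lo and the Treg group as CD4+eGFP+. The other 2 groups were induced Treg (iTreg) differentiated from naive CD4 T cells, one with TGFβ and one with TGFβ, retinoic acid and vitamin C (RA+VitC iTreg below; "with TGFβ alone" and "with RA+VitC" also stand for these groups). No group was cultured without TGFβ, and retinoic acid and vitamin C were always given together, so culture, TGFβ and each of the added compounds cannot be told apart. Each of the 4 groups had 2 replicates, with a pull-down and an input library from each, 16 libraries in all. Nothing in the labels says whether replicates were separate animals or cultures; p-values below therefore reflect only how far these libraries varied, and that variation may be technical.

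5hmC is made when TET enzymes oxidise 5-methylcytosine, the common methylated base of CpG sites. It is found over enhancers and gene bodies, is often dense over the bodies of transcribed genes, and is an intermediate on the way to losing the methyl group. TET enzymes need iron and 2-oxoglutarate, vitamin C supports their activity, and TET activity at Foxp3 is known for keeping Treg stable. In CMS-IP, bisulfite turns 5hmC into cytosine 5-methylenesulfonate, and a serum against that product pulls down the fragments that carry it. A value here is the amount of pulled-down DNA over a region relative to the rest of its library, given as CPM, the read count scaled to the library's total in all regions; it is neither gene expression nor a total amount of 5hmC.

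The exon class was almost wholly a class of exons with their flanking introns. Of the 17089 regions, 16603 (97.2%) also overlapped an intron and only 486 lay in exons alone. Their median width was 1023 bp (quartiles 507 and 2125, range 175 to 66561), wider than the 661 bp of the 69422 purely intronic regions, and together they covered 32.6 Mb, 12.58% of the length of all regions. They lay late in their genes. The median relative position along the transcript was 0.626, where 0 is the start and 1 the end, against 0.444 for purely intronic regions, and 63.8% of them lay past the midpoint. A protein-coding gene held 16762 of them, a long noncoding RNA gene 206, a transcribed pseudogene 63, a microRNA gene 6 and a small nucleolar RNA gene 6. They fell in 7588 genes by symbol, 3694 of these with a single exon region and 80 with 10 or more. The genes with the most were long genes with many exons: Itpr2, a calcium-release channel, had 27 exon regions, the cytoskeletal linker genes Utrn and Macf1 had 25 and 23, the chromosome-structure gene Smchd1 20, the chromatin remodeller Chd2 19, and the Rac and Cdc42 activator Dock8 18.

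Pull-downs held 7664194 to 9731897 reads in regions for naive cells and Treg, 3828487 and 3996442 for RA+VitC iTreg, and 1648804 and 2114056 for TGFβ iTreg. Inputs held 1028822 to 1563165. The group with the fewest reads, TGFβ iTreg, also has the widest counting error. A count of 0 allows up to about 3 reads at 95% confidence. Those 3 reads stood for 1.79 and 1.5 CPM in TGFβ iTreg and for 0.308 to 0.385 CPM in the sorted cells. Such floors cover counting error only. Of the 12 markers of CD4 T cells, Treg and naive cells that were looked up, only Cd3g, Il2ra, Ikzf2 and Ccr7 had an exon region. Over all its regions Foxp3 summed to 15.7 CPM in naive cells, 37.0 in Treg, 17.4 with TGFβ and 43.9 with RA+VitC. Markers of other blood cells, summed the same way, ranged widely over the group means. Among myeloid markers, Itgam stood at 152 CPM in naive cells, 118 in Treg, 111 with TGFβ and 80.7 with RA+VitC, Csf3r at 2.93, 2.22, 11.6 and 7.1, Csf1r at 2.8 to 5.62 and Lyz2 at 0.738 to 2.19. Of B cell markers, Cd79a stood at 39.7 to 66.1 CPM, Pax5 at 3.73 to 14.2 and Ms4a1 at 1.62 to 3.18. Of CD8 and NK cell markers, Cd8a and Cd8b1 stood at 80.2 to 150 CPM in the sorted cells and 32.9 to 58.3 CPM in both iTreg groups, Prf1 at 13.9 to 34.4 and Klrd1 at 5.16 to 12.7. Their part in the results below was not tested.

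In Treg against naive cells, 1768 exon regions were higher and 1567 lower, 12.4% and 11% of those tested. Over all 135412 tested regions the same call rule (edgeR's quasi-likelihood F test, adjusted p under 0.05) took 23.1%, 13.0% higher and 10.1% lower, so the exon share lay near the background. The largest changes of each comparison are named from regions with a mean of 50 reads or more, leaving out predicted and clone names. Regions with fewer reads could change more: a short region of Nbeal1 differed by 5.56 on the log2 scale in Treg minus naive. Among the regions open to naming, the largest rise was in Ikzf2, which encodes Helios, a transcription factor of Treg (chr1:69624171-69648754, mm9). Its naive libraries stood at 25.4 and 25 CPM and its Treg libraries at 240 and 237 CPM, against 59.0 and 58.4 with TGFβ alone and 64.5 and 61.6 with RA+VitC. All Treg libraries lay far above the rest, and the inputs of all groups were alike at 88.9 to 113 CPM. The fitted difference was 3.24 ± 0.09 on the log2 scale (standard error, n = 2 per group; edgeR adjusted p 1.7e-287), 9.47-fold. The other large rises were in Akap6, an anchor of protein kinase A (1.90 ± 0.22 to 12.4 ± 1.2 CPM, mean ± SD), Wdr70 (5.74 ± 0.41 to 31.1 ± 1.6 CPM), the GTPase-activating gene Arhgap20 (7.57 ± 1.3 to 38.8 ± 0.77 CPM) and the helicase gene Dhx32 (3.70 ± 0.58 to 16.2 ± 1.3 CPM). In all of these, naive pull-downs lay below the naive inputs and Treg pull-downs lay near the Treg inputs. Akap6 inputs stood at 17.0 and 19.7 CPM in naive cells and 10.9 and 10.6 in Treg. Arhgap20 inputs stood at 40.4 and 36.8 CPM in naive cells and 32.6 and 34.9 in Treg. Pull-down and input CPM are scaled differently, so this comparison is rough.

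The largest fall from naive cells to Treg was in Vwf, the gene of von Willebrand factor (chr6:125627222-125630948). It held 16.2 and 20.7 CPM in naive cells and 2.94 and 2.72 CPM in Treg, a log2 difference of -2.71 ± 0.20 (edgeR adjusted p 2.2e-39), and 12.5 and 14.5 CPM in TGFβ iTreg. Treg were thus the lowest group, and TGFβ iTreg stood close to naive cells. RA+VitC iTreg lay between, at 7.91 and 8.37 CPM (log2 -1.19 ± 0.20 against naive cells). Nacc2, a transcriptional repressor of the BTB family, fell from 20.1 ± 1.7 to 3.24 ± 0.43 CPM, the bicarbonate transporter gene Slc4a4 from 23.7 ± 1.6 to 5.39 ± 0.57, and Ibtk, an inhibitor of Bruton's tyrosine kinase, from 26.3 ± 2.4 to 6.37 ± 0.34. Igfbp4, which binds insulin-like growth factors and is known as a gene of naive T cells, fell from 66.8 ± 0.40 to 17.6 ± 1.4 CPM (log2 -1.92 ± 0.11, edgeR adjusted p 4.6e-69). The replicates of the groups compared did not overlap in any region named for the largest changes, because the rule for naming them required it.

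In TGFβ iTreg against naive cells, 1503 exon regions were higher and 1232 lower, 19.2% together, beside 21.3% of all regions (13.1% higher and 8.28% lower). The exon rises were large. A region of Clasp1, which binds the growing ends of microtubules (chr1:120434974-120437579), held 1.15 and 1.44 CPM in naive cells, 4.86 and 5.2 in Treg, 41.1 and 39.9 with TGFβ alone, and 47.2 and 42.7 with RA+VitC. Both iTreg groups were high, Treg were low and naive cells lower still, below their own inputs of 11.3 and 8.54 CPM. The log2 difference was 4.92 ± 0.26, 30.3-fold (edgeR adjusted p 9e-78), from 9 and 14 reads in naive cells to 69 and 80. Ppm1l, a protein phosphatase, rose from 5.02 ± 2.2 to 112 ± 18 CPM, Xrra1 from 3.16 ± 0.48 to 56.2 ± 9.0, Nav1, a microtubule-binding gene, from 5.45 ± 0.28 to 90.5 ± 21, and Piwil4, of the Piwi family, from 3.44 ± 0.51 to 57.8 ± 7.6.

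The falls from naive cells to TGFβ iTreg were smaller and ended near the counting floor of these libraries. Itgad, an integrin chain, fell from 13.7 ± 0.69 to 3.53 ± 0.058 CPM, and Entpd7, a nucleotide hydrolase, from 14.6 ± 0.22 to 3.73 ± 1.1 CPM. In Entpd7 the TGFβ iTreg libraries held 5 and 9 reads. Usp18, which removes the interferon-induced protein ISG15 and dampens interferon receptor signalling, fell from 13.1 ± 0.055 to 3.34 ± 3.0 CPM, on 2 and 11 reads (log2 -1.89 ± 0.35, edgeR adjusted p 1e-06). The peroxisomal protease gene Lonp2 and the sorting nexin gene Snx30 fell by 1.78 and 1.68 on the log2 scale.

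RA+VitC iTreg against naive cells gave the most calls, 2759 higher and 2114 lower, 34.2% of the exon regions, beside 37.8% of all regions (21.9% higher and 15.8% lower). Clasp1, Ppm1l and Nav1 were among the 5 largest rises here too, at 45.0 ± 3.1, 155 ± 12 and 157 ± 18 CPM. The other rises were in Tgs1 and Dpy19l3. Tgs1 adds the trimethylguanosine cap of small nuclear RNAs (chr4:3527737-3530632). It held 1.67 and 2.26 CPM in naive cells, 4.60 and 2.83 in Treg, 14.9 and 13.0 with TGFβ alone, and 66.5 and 62.8 with RA+VitC, a log2 difference to naive cells of 5.00 ± 0.18 (edgeR adjusted p 2.7e-160). All 4 groups were apart, with the inputs at 9.60 to 20.5 CPM. Dpy19l3, a mannosyltransferase, went from 2.71 ± 0.38 to 59.7 ± 7.1 CPM.

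The falls were led by Tspan9, a tetraspanin (21.9 ± 0.14 to 4.28 ± 1.4 CPM, log2 -2.35 ± 0.23, edgeR adjusted p 3.6e-22), and Slc4a4 (to 4.74 ± 0.067 CPM). Garnl3, Snx31 and Epb41l4b followed with log2 differences of -2.18 to -2.02. Comparisons with naive cells share the naive libraries, so the return of the same genes is no independent observation.

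Between the 2 iTreg cultures 712 exon regions were higher with RA+VitC and 228 lower, 6.60% together, beside 6.58% of all regions (4.60% higher and 1.98% lower). With every library thinned to the depth of the shallowest, the counts were 325 higher and 249 lower, and with library-size scaling 406 and 415, so the excess of rises depends on both choices. The largest rise was Tgs1 again (log2 2.22 ± 0.19, edgeR adjusted p 5.3e-28). Rufy3, which works in vesicle transport and cell polarity, stood at 12.5 and 15 CPM with TGFβ alone and 52.4 and 43.9 with RA+VitC, while naive cells stood at 3.72 and 4.62 CPM and Treg at 10.4 and 11.9. RA+VitC iTreg were the only group above 20 CPM. Scn11a, a sodium channel, rose from 8.02 ± 2.1 to 28 ± 0.65 CPM, with naive cells at 7.18 ± 2.9 and Treg at 11.4 ± 2.1. St8sia6, a sialyltransferase (5.58 ± 2.0 to 19.5 ± 3.1 CPM), and Lsm12, of the LSM family (4.18 ± 2.5 to 14.8 ± 0.63), were of another kind: naive cells and Treg lay between the cultures, at 10.1 ± 0.31 to 11.7 ± 2.4 CPM.

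The 5 largest falls between the cultures included 3 regions that were high in TGFβ iTreg alone. Daglb, a diacylglycerol lipase (chr5:144243429-144246696), held 34.6 and 31.9 CPM in TGFβ iTreg and 6.52 to 11.7 CPM in every library of the other groups (log2 -1.68 ± 0.22 for RA+VitC minus TGFβ, edgeR adjusted p 1.3e-11). Nmnat2, an enzyme of NAD synthesis, held 40.5 and 32.9 CPM there and 7.68 to 14.6 elsewhere. Kntc1, a kinetochore gene, held 69.1 and 83.8 CPM there and 13.4 to 28.1 elsewhere. Nacc2 was lower with RA+VitC (9.04 ± 1.6 against 28.5 ± 13 CPM), and so was Scg3, a granin of secretory granules (3.12 ± 1.5 against 8.71 ± 0.32 CPM). The call on Scg3 (log2 -1.48 ± 0.41, edgeR adjusted p 0.008) was lost without TGFβ iTreg replicate 1, without TGFβ iTreg replicate 2, and without RA+VitC iTreg replicate 1, at log2 -1.42, -1.46 and -1.02.

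In TGFβ iTreg against Treg, 1080 exon regions were higher and 891 lower, 13.8% together, beside 15.4% of all regions (9.55% higher and 5.88% lower). Lss, which makes lanosterol in cholesterol synthesis (chr10:76002962-76006752), held 4.34 and 5.32 CPM in Treg and 64.9 and 68.8 in TGFβ iTreg, with 47.8 and 43.9 in RA+VitC iTreg and 3.97 and 4.52 in naive cells. Both iTreg groups were high and both sorted groups low (log2 3.78 ± 0.18, edgeR adjusted p 3.1e-94). Ism1 (3.58 ± 0.72 to 44.4 ± 6.3 CPM), the Rac activator Prex1 (4.26 ± 1.2 to 44.6 ± 2.5) and Piwil4 (5.70 ± 0.29 to 57.8 ± 7.6) had the same order of the sorted and induced groups. The falls were led by Ikzf2 at the region that rose in Treg (log2 -2.02 ± 0.11), followed by Entpd7, the histone deacetylase gene Hdac4 (15.4 ± 0.77 to 4.08 ± 0.13 CPM), the collagen gene Col15a1 (15.2 ± 1.1 to 4.13 ± 0.90) and Usp18.

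In RA+VitC iTreg against Treg, 2299 were higher and 1524 lower, 26.9% together, beside 29.2% of all regions (17.8% higher and 11.4% lower). The rises were in Tgs1 (log2 4.12 ± 0.17), Nav1 (3.84 ± 0.11), Dpy19l3, Lss and Clasp1. The falls were in regions that were highest in Treg. Itga9, an integrin chain (chr9:118691906-118698896), held 34.8 and 37.1 CPM in Treg, 18.1 and 16.4 in naive cells, 13.7 and 12.5 with TGFβ alone, and 7.03 and 8.67 with RA+VitC (log2 -2.19 ± 0.18, edgeR adjusted p 7.1e-31). Mypn, of the muscle sarcomere, Arhgap20 and Gpt2, an alanine aminotransferase, also had their highest mean in Treg, at 14.4 ± 0.15, 38.8 ± 0.77 and 27.3 ± 1.1 CPM, and fell to 2.95 ± 0.80, 8.61 ± 3.5 and 7.11 ± 0.52. Scg3 fell from 12.2 ± 1.1 to 3.12 ± 1.5 CPM.

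**Figure D1:**
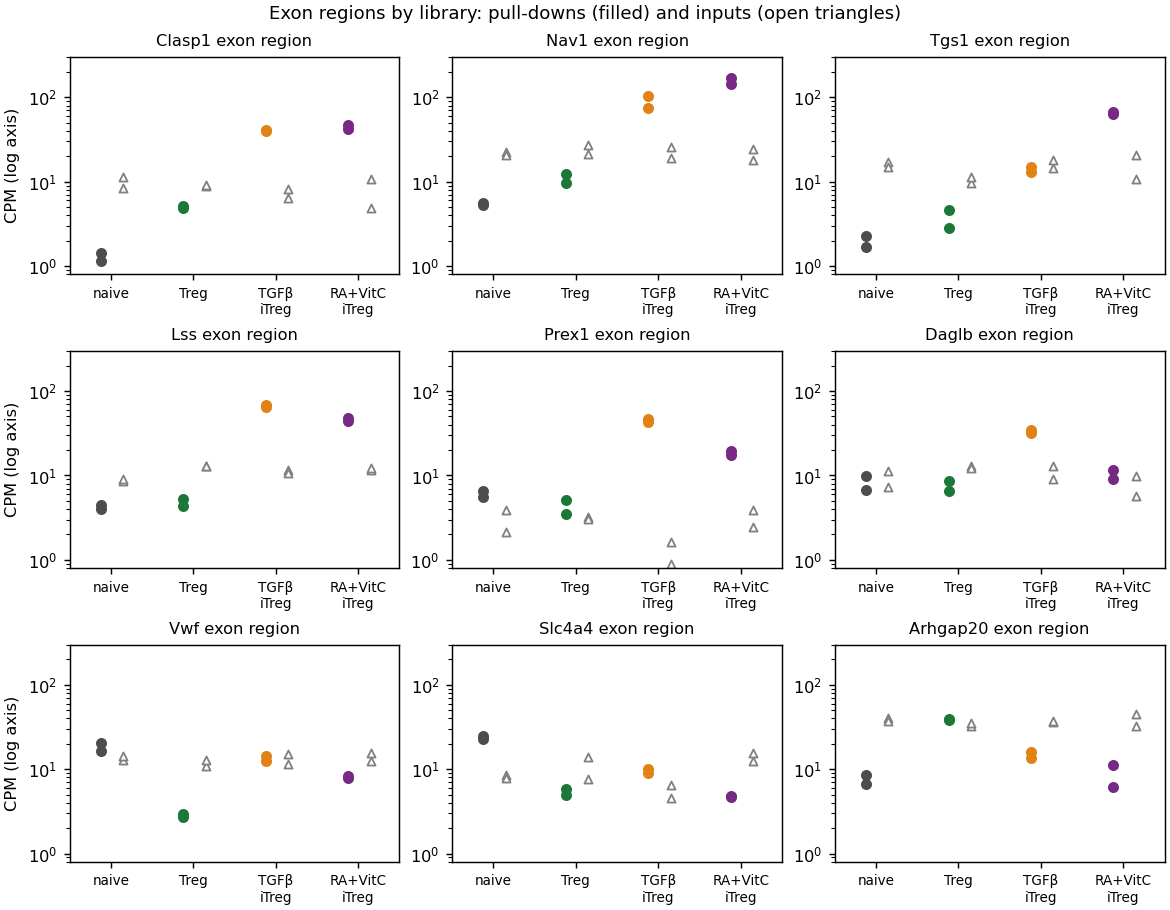
CPM on a log axis of 9 exon regions in each pull-down library (filled circles, 2 per group) and each input library (open triangles). Clasp1, Nav1, Lss and Prex1 were high in both iTreg groups, Tgs1 was highest with RA+VitC at 62.8 to 66.5 CPM, Daglb with TGFβ alone at 31.9 to 34.6 CPM, Arhgap20 in Treg at 38.3 to 39.4 CPM and Slc4a4 in naive cells at 22.6 to 24.9 CPM, while Vwf was lowest in Treg at 2.72 to 2.94 CPM.

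The split between higher and lower depends on how libraries are scaled. Scaling by the number of reads in regions in place of TMM moved the median of all tested regions by -0.23 on the log2 scale in RA+VitC iTreg minus naive, by -0.19 against TGFβ iTreg and by -0.25 against Treg. The share of called exon regions that were higher went with it, from 56.6% to 38.4%, from 75.7% to 49.5% and from 60.1% to 36.3%. In the other comparisons it went from 53.0% to 56.0% (Treg minus naive), from 55.0% to 50.5% (TGFβ iTreg minus naive) and from 54.8% to 46.4% (TGFβ iTreg minus Treg). DESeq2, with its own size factors, called fewer exon regions and a larger share of them higher in every comparison: 583 higher and 287 lower in Treg minus naive, 1083 and 513 in TGFβ iTreg minus naive, 1858 and 866 in RA+VitC iTreg minus naive, 422 and 110 between the cultures, 732 and 316 in TGFβ iTreg minus Treg, and 1440 and 483 in RA+VitC iTreg minus Treg. On the inputs, scaled by plain totals and not by TMM, edgeR's test called 0 of 6010 tested exon regions in each comparison. At an unadjusted p under 0.05 there were 289 to 373. The inputs held fewer reads than any pull-down, and fewer of their exon regions passed the filter, so differences there could be missed.

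Exon regions were then set against purely intronic ones of the same mean abundance and width. The intronic regions were reweighted over 10 bins of mean log2 CPM by 10 bins of width, which kept 14235 exon and 50849 intronic regions. In all 6 comparisons a smaller share of the exon regions was called in each direction. With every library thinned to the depth of the shallowest, the gap for falls turned to 0.47 percentage points in Treg minus naive and 0.15 between the cultures. The gap was largest for falls in RA+VitC iTreg: 14.9% of exon regions were lower than in naive cells against 17.6% of matched intronic regions, and 10.7% lower than in Treg against 13.1%. For rises it was 19.4% against 21.0% (RA+VitC iTreg minus naive), 16.1% against 17.1% (minus Treg), 5.00% against 5.77% (minus TGFβ iTreg), 12.4% against 13.9% (Treg minus naive), 10.6% against 11.7% (TGFβ iTreg minus naive) and 7.59% against 8.38% (TGFβ iTreg minus Treg). The median log2 difference of exon regions was within -0.007 to 0.052 of that of matched intronic regions. Several of these gaps came with the matching. Against unmatched intronic regions, a larger share of exon regions was lower in Treg minus naive (11% against 9.31%), in TGFβ iTreg minus naive (8.65% against 7.69%) and in TGFβ iTreg minus Treg (6.26% against 5.56%). Between the cultures, rises (5.00% against 4.29%) turned as well and falls were nearly level (1.60% against 1.59%), and rises in RA+VitC iTreg minus Treg were level at 16.1%. Regions are not replicates, so these shares are given with no test.

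**Figure D2:**
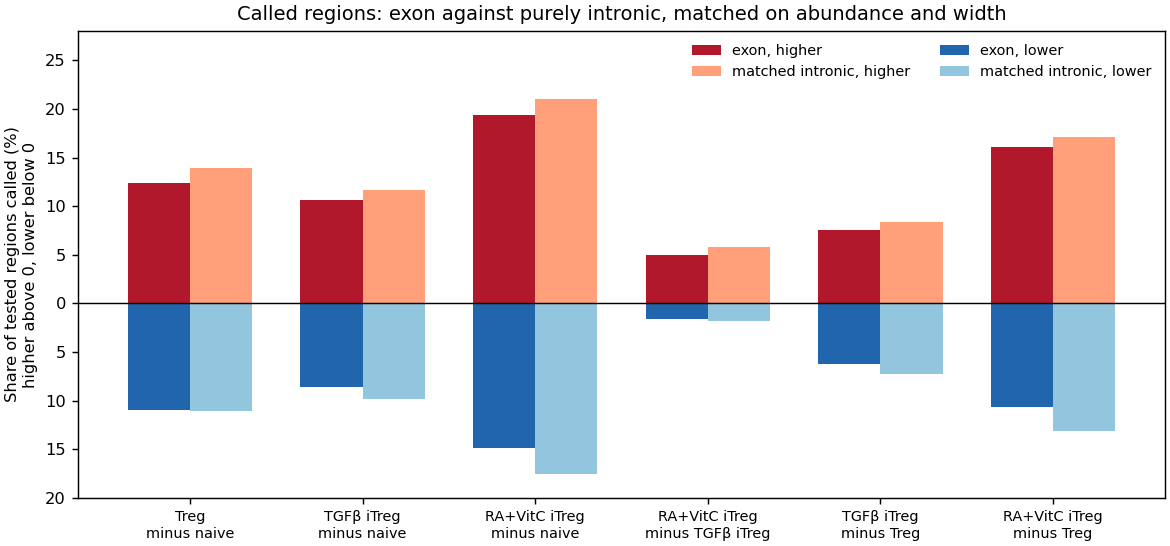
Share of tested regions called higher (above 0) or lower (below 0) in each comparison, in percent, for exon regions (dark bars) and purely intronic regions matched on abundance and width (light bars). In each pair the exon bar is the shorter one, by at most 2.77 percentage points.

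The chance of a call rose with the reads behind a region. In the lowest of 5 equal groups of exon regions by mean abundance, with a median of 8 reads per pull-down, 12.3% were higher in RA+VitC iTreg than in naive cells, and in the top group, with a median of 98 reads, 35.7%. Between the 2 iTreg cultures the share of rises went from 0.492% to 18.1%. Width gave the same order at its ends: 0.912% of the narrowest group (175 to 660 bp) and 16.3% of the widest (2930 bp and more) were higher with RA+VitC than with TGFβ alone. The climb was not steady in every comparison. In RA+VitC iTreg minus naive, rises went from 16.1% in the narrowest group to 13.4% in the next and 30.4% in the widest. A region that was not called, above all a narrow one, is therefore not shown to be unchanged.

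**Figure D3:**
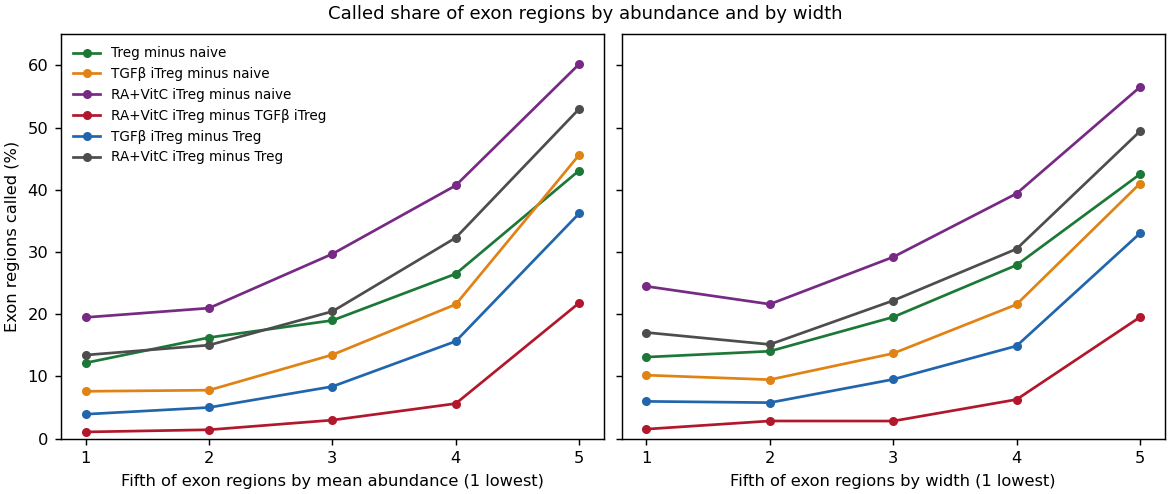
Share of tested exon regions called in either direction, in percent, in 5 equal groups by mean abundance (left) and by width (right), 1 line per comparison. Lines are highest in the most abundant and the widest group, though by width some dip from the narrowest group to the next. RA+VitC iTreg minus naive is the top line throughout.

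Position along the gene went with the culture comparison as well. RA+VitC iTreg were higher than TGFβ iTreg in 7.02% of exon regions in the first of 3 equal parts of their transcript, 4.96% in the middle and 3.96% in the last. In TGFβ iTreg minus naive, falls went from 10.7% in the first part to 7.58% in the last, while rises stood at 9.95% and 10.6%. Regions of the first part were also wider and fuller (median 1465 bp and 4.56 CPM) than those of the last (1180 bp and 3.34 CPM), and the part of this in the difference was not tested.

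The share of reads that fell in exon regions moved little. It was 12.31% and 12.33% in naive cells, 12.25% and 12.27% in Treg, 11.96% and 11.91% with TGFβ alone, and 12.26% and 12.23% with RA+VitC. Inputs stood at 12.27% to 12.34%. TGFβ iTreg were thus the lowest group by about 0.3 percentage points, and in the same libraries 28.47% and 28.32% of reads were intergenic against 24.52% to 25.97% in the other pull-downs. Set against reads over transcripts only, the exon share of TGFβ iTreg was the highest of the pull-downs (17.07% ± 0.071 against 16.76% ± 0.007 in naive cells), so the order depends on the denominator. Reads per kb in exon regions were 1.014 ± 0.0035 times those in purely intronic regions in naive cells, 1.000 ± 0.0014 in Treg, 1.006 ± 0.0071 with TGFβ alone and 1.029 ± 0.0057 with RA+VitC, against 0.929 to 0.942 in the inputs. Every pull-down lay above every input. After matching on abundance and width, exon regions exceeded intronic ones by a mean of 0.031 and 0.018 log2 CPM in RA+VitC iTreg, and by -0.006 to 0.013 in the other pull-downs. With 2 libraries in a group these values are a description.

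**Figure D4:**
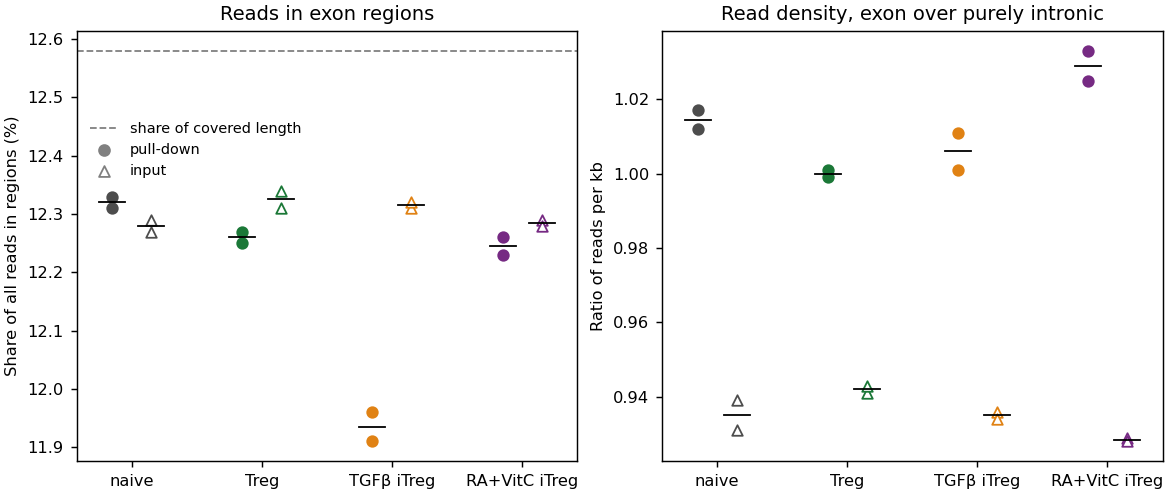
Left, share of each library's reads that fell in exon regions, in percent, with the share of covered length as a dashed line at 12.58%. Right, reads per kb in exon regions over reads per kb in purely intronic regions. Points are libraries (filled circles pull-downs, open triangles inputs), short lines are means of 2, and neither axis starts at 0. TGFβ iTreg pull-downs are lowest on the left at 11.91% and 11.96%, and pull-downs lie at 0.999 to 1.033 on the right, above the inputs at 0.928 to 0.943.

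Gene lists were read against the shares called over all tested regions, which were 13.0% higher and 10.1% lower in Treg minus naive, 13.1% and 8.28% in TGFβ iTreg minus naive, 21.9% and 15.8% in RA+VitC iTreg minus naive, 4.60% and 1.98% between the cultures, 9.55% and 5.88% in TGFβ iTreg minus Treg, and 17.8% and 11.4% in RA+VitC iTreg minus Treg. A short list gives a coarse share, and regions of 1 gene are not independent. The lists were chosen with earlier results of these data known, so their shares are a description. Their regions were not matched to all regions on abundance or width. In the most abundant of the 5 groups of exon regions, 19.1% were higher and 24.0% lower in Treg minus naive.

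Of the Treg signature, 16 of 34 genes had a tested exon region, 33 regions in all. In Treg against naive cells 22 of them were higher (66.7%, beside 13.0% of all regions) and 1 lower, against the same cells 17 (51.5%, beside 13.1%) and 0 with TGFβ alone, and 24 (72.7%, beside 21.9%) and 0 with RA+VitC. The median log2 difference was 0.72 in Treg against naive cells, beside -0.02 over all tested exon regions. Between the cultures 8 were higher with RA+VitC and 0 lower. Against Treg, 9 were higher and 4 lower with TGFβ alone and 16 and 3 with RA+VitC. Il2ra, the high-affinity chain of the IL-2 receptor, had 1 exon region (start 11568438 on chromosome 2, 28037 bp). It held 78.7 and 74.4 CPM in naive cells, 134 and 141 in Treg, 385 and 484 with TGFβ alone, and 682 and 657 with RA+VitC. The groups did not overlap, and Treg stood below both iTreg groups (TGFβ iTreg minus Treg 1.66 ± 0.08, edgeR adjusted p 2.3e-89). Nt5e, the ectonucleotidase CD73, had a region with 17.7 and 20.6 CPM in naive cells, 30.3 and 33.1 in Treg, 74.5 and 93.3 with TGFβ alone and 127 and 113 with RA+VitC. Socs2, a suppressor of cytokine signalling, rose from 1.36 ± 0.11 CPM in naive cells to 4.26 ± 1.0, 8.71 ± 0.32 and 15.1 ± 1.5 CPM in the same order, and the call in Treg was lost after thinning to equal depth. Swap70, a guanine-exchange factor of lymphocytes, was high in Treg alone, at 59.4 and 59.7 CPM against 19.1 to 27.9 in every other pull-down.

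Exon regions of a gene did not always move together, and Ikzf2 was the clearest case among these genes. Its wide late region, at relative position 0.70, was the largest Treg rise given above. Its other exon region, near the start at 0.07 (chr1:69721864-69730680), held 26.7 and 31.3 CPM in naive cells, 17.4 and 17.6 in Treg, 56.0 and 85.3 with TGFβ alone and 76.8 and 63.7 with RA+VitC. There Treg were the lowest group and both iTreg groups the highest, so that TGFβ iTreg minus Treg was 2.03 ± 0.14 at the early region and -2.02 ± 0.11 at the late one (edgeR adjusted p 5.8e-43 and 3.2e-73). Igfbp4 also had both directions: beside the region that fell in Treg, RA+VitC iTreg had a rise of 1.95 ± 0.35 over naive cells at a 1133 bp neighbour, a call that was lost when libraries were thinned to equal depth. Of the 3218 genes with 2 or more tested exon regions, 632 had 2 or more called in Treg minus naive, and 138 of these (21.8%) had calls both ways. The share was 32.8% in TGFβ iTreg minus naive (139 of 424), 33.3% in RA+VitC iTreg minus naive (316 of 949), 28.9% in TGFβ iTreg minus Treg, 30.3% in RA+VitC iTreg minus Treg and 11.7% between the cultures (13 of 111).

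T cell activation genes had 33 tested exon regions in 14 genes. In Treg 17 were higher than in naive cells (51.5%, beside 13.0% of all regions) and 0 lower; TGFβ iTreg had 8 (24.2%, beside 13.1%) and 3, RA+VitC iTreg 12 (36.4%, beside 21.9%) and 1. Against Treg, 2 were higher and 8 lower with TGFβ alone and 4 and 8 with RA+VitC, and between the cultures 3 were higher and 0 lower. A 605 bp region of Nr4a3, a nuclear receptor induced by T cell receptor signals, held 1.28 and 0.925 CPM in naive cells and 4.09 and 4.49 in Treg (log2 1.96 ± 0.36, edgeR adjusted p 1e-06). Tfrc, the transferrin receptor of dividing cells, was high in both iTreg groups alone: one region held 3.08 and 2.88 CPM in naive cells, 2.81 and 3.19 in Treg, 9.53 and 7.98 with TGFβ alone and 17.0 and 17.3 with RA+VitC.

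Naive T cell genes had 23 tested exon regions in 10 genes. In Treg 2 were higher and 6 lower than in naive cells (8.7% and 26.1%, beside 13.0% and 10.1% of all regions). TGFβ iTreg had 2 and 4 (8.7% and 17.4%, beside 13.1% and 8.28%). RA+VitC iTreg had 6 and 5 (26.1% and 21.7%, beside 21.9% and 15.8%). Between the cultures 3 were higher with RA+VitC and 0 lower; against Treg 1 was higher and 1 lower with TGFβ alone and 6 and 1 with RA+VitC. The 3 that were higher with RA+VitC than with TGFβ alone lay in Ets1, Txk and Foxp1, and the Txk call was lost after thinning to equal depth. Ets1, a transcription factor of lymphocytes (13500 bp), held 55.3 and 47.8 CPM in naive cells, 68.1 and 74.8 in Treg, 69.7 and 70.8 with TGFβ alone, and 152 and 140 with RA+VitC. RA+VitC iTreg stood apart from the other groups (minus TGFβ iTreg 1.06 ± 0.12, edgeR adjusted p 7.4e-17).

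Genes of the T helper programmes had calls both ways, as all tested regions did. In Treg minus naive, 22.7% of Th1 regions were higher and 22.7% lower. For Th17 it was 37.5% and 12.5%, and for Th2 18.2% and 9.09%, beside 13.0% and 10.1% of all regions. Of 22 tested Th1 regions, 5 were higher and 5 lower in Treg than in naive cells, 5 and 4 with TGFβ alone, 6 and 5 with RA+VitC; 3 and 3 between the cultures; and against Treg 4 and 2 with TGFβ alone and 8 and 5 with RA+VitC. Stat4, which carries IL-12 signals, had a region at 7.18 and 7.5 CPM in naive cells, 9.71 and 11.5 in Treg, 44.1 and 46.4 with TGFβ alone, and 59.5 and 43.3 with RA+VitC (TGFβ iTreg minus naive 2.62 ± 0.18, edgeR adjusted p 3.4e-43). Another Stat4 exon region, of 335 bp, was lower in RA+VitC iTreg than in naive cells (log2 -1.67 ± 0.39). Il12rb2, the signalling chain of the IL-12 receptor, fell: one region went from 34.4 and 31.2 CPM in naive cells to 14.3 and 14.0 with TGFβ alone and 11.7 and 8.67 with RA+VitC, with Treg at 25.9 and 26.5. Of 16 Th17 regions, 6 were higher and 2 lower in Treg than in naive cells, 4 and 1 with TGFβ alone, 6 and 3 with RA+VitC, 1 and 0 between the cultures, and 1 and 4 against Treg in either iTreg group. The file assigns to Rora, a nuclear receptor of Th17 cells and innate lymphoid cells, an early region of 1845 bp whose annotated exon is that of another gene, 9530091C08Rik. It held 0.897 and 0.411 CPM in naive cells, 2.43 and 2.01 in Treg, 14.3 and 18.0 with TGFβ alone and 12.9 and 13.2 with RA+VitC (TGFβ iTreg minus naive 4.65 ± 0.39, edgeR adjusted p 7.4e-31). A late region of 6717 bp over an exon of Rora itself was highest in Treg instead, at 22.2 and 19.8 CPM, with 10.8 to 12.9 in both iTreg groups. Of 11 Th2 regions, 2 were higher and 1 lower in Treg than in naive cells, 1 and 0 with TGFβ alone, 2 and 1 with RA+VitC, 0 and 0 between the cultures, and 1 and 0 and 1 and 1 against Treg. Il1rl1, the IL-33 receptor, was higher in RA+VitC iTreg than in naive cells (log2 1.96 ± 0.44).

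Of 16 tested exon regions in 8 retinoic acid response genes, 1 was higher (6.25%, beside 4.60% of all regions) and 0 lower between the cultures, 2 and 1 in Treg minus naive, 1 and 1 in TGFβ iTreg minus naive, 5 (31.2%, beside 21.9%) and 0 in RA+VitC iTreg minus naive, 0 and 0 in TGFβ iTreg minus Treg and 3 and 0 in RA+VitC iTreg minus Treg. The retinol transporter gene Stra6 was higher in RA+VitC iTreg (27.8 and 26.3 CPM) than in naive cells (14.0 and 13.9), with Treg at 18.9 and 17.7 and TGFβ iTreg at 16.7 and 21.5 (log2 0.96 ± 0.16 over naive cells, edgeR adjusted p 1.4e-08). Of 43 regions in 16 TGFβ pathway genes, 10 were higher and 12 lower in Treg than in naive cells (23.3% and 27.9%, beside 13.0% and 10.1% of all regions), 7 and 7 with TGFβ alone (16.3% each way, beside 13.1% and 8.28%) and 6 and 5 with RA+VitC; 4 and 0 between the cultures; and 4 and 1 and 10 and 5 against Treg. Pmepa1, which is induced by TGFβ and damps its signal, had a region of 44731 bp with 168 and 176 CPM in naive cells, 225 and 231 in Treg, 197 and 227 with TGFβ alone, and 664 and 592 with RA+VitC. It was high with RA+VitC alone, and the 3 other groups lay close together (RA+VitC minus TGFβ iTreg 1.56 ± 0.09, edgeR adjusted p 1.1e-70). Tgfbr2, the ligand-binding TGFβ receptor, was lowest with TGFβ alone: 235 and 243 CPM in naive cells, 154 and 168 in Treg, 97.1 and 95.8 with TGFβ alone and 191 and 189 with RA+VitC. Itgav, an integrin chain that activates latent TGFβ, rose from 2.18 and 2.06 CPM in naive cells to 5.24 and 7.44, 11.9 and 12, and 14.9 and 19.7 CPM in the same order of groups, and the call in Treg was lost after thinning.

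The DNA methylation machinery itself held 31 tested exon regions in 14 genes. In Treg 7 were higher and 2 lower than in naive cells (22.6% and 6.45%, beside 13.0% and 10.1% of all regions). TGFβ iTreg had 2 and 2 (6.45% each way, beside 13.1% and 8.28%). RA+VitC iTreg had 7 and 2 (22.6% and 6.45%, beside 21.9% and 15.8%). Between the cultures the counts were 2 and 0, and against Treg 2 and 2 with TGFβ alone and 5 and 1 with RA+VitC. Tet2, one of the enzymes that make 5hmC, had a region of 1373 bp with 1.67 and 1.64 CPM in naive cells, 2.68 and 3.43 in Treg, 8.34 and 5.99 with TGFβ alone and 3.52 and 2.99 with RA+VitC (TGFβ iTreg minus naive 2.08 ± 0.42, edgeR adjusted p 1.5e-05). TGFβ iTreg were the highest group there, on counts near their floor. Uhrf2, a reader of 5hmC, rose from 2.31 and 2.77 CPM in naive cells to 12.9 and 6.28 in RA+VitC iTreg (log2 1.90 ± 0.29, edgeR adjusted p 1e-09). Idh2, which makes the 2-oxoglutarate that TET enzymes use, fell from 11.5 and 9.87 CPM in naive cells to 1.79 and 3.99 in TGFβ iTreg. Chromatin enzymes, with 146 tested regions in 29 genes, gave the following counts: 10 were higher and 15 lower in Treg than in naive cells (6.85% and 10.3%, beside 13.0% and 10.1% of all regions), 8 and 18 with TGFβ alone (5.48% and 12.3%, beside 13.1% and 8.28%), 22 and 20 with RA+VitC (15.1% and 13.7%, beside 21.9% and 15.8%), 5 and 2 between the cultures, and 8 and 10 and 23 and 14 against Treg. Kmt2c, a histone H3K4 methyltransferase, rose from 0.897 and 1.34 CPM in naive cells to 5.86 and 8.37 in RA+VitC iTreg.

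Cytoskeleton and adhesion genes with many exons held 170 tested regions in 28 genes. In Treg 17 were higher and 20 lower than in naive cells, 21 and 6 with TGFβ alone, and 40 and 23 with RA+VitC; between the cultures 5 and 1; against Treg 18 and 7 and 34 and 15. A region of Dst, a linker of cytoskeletal filaments, held 2.69 and 2.98 CPM in naive cells, 2.68 and 2.95 in Treg, 14.3 and 14.0 with TGFβ alone, and 20.2 and 17.3 with RA+VitC (TGFβ iTreg minus naive 2.30 ± 0.31, edgeR adjusted p 2.9e-12). A region of Ttn, the giant muscle protein titin, rose from 0.513 and 0.411 CPM in naive cells to 4.73 and 3.66 in Treg, and one of the unconventional myosin Myo1e from 1.41 and 1.13 to 5.88 and 6.50 CPM.

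T cell identity genes had 19 tested regions in 9 genes. In Treg 2 were higher and 6 lower than in naive cells (10.5% and 31.6%, beside 13.0% and 10.1% of all regions). TGFβ iTreg had 0 and 8 (0% and 42.1%, beside 13.1% and 8.28%). RA+VitC iTreg had 3 and 4 (15.8% and 21.1%, beside 21.9% and 15.8%). Between the cultures the counts were 4 and 0, and against Treg 0 and 6 with TGFβ alone and 5 and 6 with RA+VitC. Cd3g, a chain of the T cell receptor complex, fell from 49.0 and 48.0 CPM in naive cells to 33.0 and 34.6 in Treg, 15.5 and 22.0 with TGFβ alone and 26.7 and 18.8 with RA+VitC. Runx1, a transcription factor of T cell development, had a 17159 bp region at 40.5 and 42.4 CPM with TGFβ alone and 80.0 and 99.8 with RA+VitC (log2 1.11 ± 0.14, edgeR adjusted p 1.2e-12).

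Genes of other blood cells were counted as well, since 5hmC from other cells in a sort would appear there. Myeloid and dendritic cell genes had 18 tested regions in 6 genes: 1 was higher and 10 lower in Treg than in naive cells (55.6% lower, beside 10.1% of all regions), 2 and 3 with TGFβ alone, 1 and 12 with RA+VitC (66.7% lower, beside 15.8%), 0 and 3 between the cultures, and 1 and 1 and 1 and 7 against Treg. Spi1, which encodes PU.1, a factor of myeloid and B cells, rose in both iTreg groups (start 90952270 on chromosome 2, 1565 bp). It held 1.54 and 1.23 CPM in naive cells, 5.37 and 3.07 in Treg, 39.9 and 46.4 with TGFβ alone and 18.8 and 18.8 with RA+VitC (TGFβ iTreg minus naive 4.96 ± 0.25, edgeR adjusted p 2e-83). Flt3, a receptor of early progenitors and dendritic cells, fell from 81.9 and 83.9 CPM in naive cells to 50.2 and 48.8 in Treg, 35.1 and 37.4 with TGFβ alone and 18.2 and 23.0 with RA+VitC at its widest exon region. Itgam fell too (8.59 and 9.56 to 4.10 and 2.09 CPM in RA+VitC iTreg at one region). The median log2 difference of the 18 regions was -0.55 in Treg and -1.16 in RA+VitC iTreg against naive cells, beside -0.02 and -0.03 over tested exon regions. All falls in these 2 comparisons lay in the 3 genes Flt3, Itgam and Itgax, and the 1 rise was Spi1. B cell genes had 7 tested regions, 1 higher and 1 lower in Treg than in naive cells, 0 and 1 with TGFβ alone, 2 and 2 with RA+VitC, 0 and 0 between the cultures, and 1 and 1 against Treg in either iTreg group. Blk, a kinase of B cells, was higher in Treg (4.22 and 4.84 CPM) than in naive cells (0.897 and 1.34). CD8 and NK cell genes had 7, of which 2 were higher and 2 lower in Treg, 0 and 1 with TGFβ alone and 2 and 1 with RA+VitC than in naive cells, 0 and 0 between the cultures, and 0 and 0 and 1 and 1 against Treg. Perforin, Prf1, fell from 11 and 11.5 CPM in naive cells to 3.45 and 3.90 in Treg.

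Within a gene, exon regions and introns could be compared directly. Reads were summed per gene over its exon regions and over its purely intronic regions, and the difference of the 2 fold changes was tested as an interaction inside each library, for 5209 genes with enough reads in both. In Treg minus naive 440 genes (8.45%) had an exon difference above the intron difference and 383 (7.35%) below, 15.8% of those tested. It was 519 (9.96%) and 472 (9.06%), together 19.0%, in TGFβ iTreg minus naive, 820 and 805 (31.2%) in RA+VitC iTreg minus naive, 93 and 105 (3.8%) between the cultures, 392 (7.53%) and 322 (6.18%), together 13.7%, in TGFβ iTreg minus Treg, and 674 and 657 (25.6%) in RA+VitC iTreg minus Treg. The directions were nearly balanced, with median differences of -0.03 to 0.02 on the log2 scale. Across genes, which are not independent and share their libraries, the exon and intron log2 differences correlated with a Pearson r of 0.27 to 0.48.

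Regions of the same kind also differed within a gene. In a comparison chosen after seeing the data, the purely intronic regions of a gene were taken alternately along the chromosome and set against each other in the same test. Over the 4032 genes open to both, the exon against intron test called 17.6% in Treg minus naive and the intron against intron test 9%. The values were 21.5% and 16.1% in TGFβ iTreg minus naive, 34.1% and 26.1% in RA+VitC iTreg minus naive, 4.54% and 3.03% between the cultures, 15.5% and 12.8% in TGFβ iTreg minus Treg, and 28.5% and 20.3% in RA+VitC iTreg minus Treg. Introns set against introns of the same gene were thus called in every comparison as well, in a smaller share of genes. The sums differed in depth (median 54 reads in exons and 150 in introns, against 76 and 63 for the alternate introns), and the part of that was not tested.

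Genes named for exon minus intron differences had a mean of 100 reads or more in each sum. Among them Map2k5, a kinase of the ERK5 pathway, had the largest exon excess in TGFβ iTreg. Its 5 exon regions summed to 21.0 and 24.7 CPM in naive cells, 30.3 and 31.7 in Treg, 181 and 176 with TGFβ alone, and 93.5 and 78.0 with RA+VitC. Its 41 purely intronic regions summed to 121 and 113, 105 and 97.3, 129 and 128, and 87.9 and 85.5 CPM in the same order. The exon sum was high in both iTreg groups, while the intronic sum differed from naive cells by 0.13 on the log2 scale with TGFβ alone and by -0.43 with RA+VitC (exon minus intron difference in TGFβ iTreg minus naive 2.81 ± 0.12, edgeR adjusted p 1.6e-114). Prkci, an atypical protein kinase C, had exon sums of 10.5 and 11.8 CPM in naive cells, 72.1 and 83.8 with TGFβ alone, and 95.8 and 87.6 with RA+VitC, and intronic sums of 15.9 to 27.5 CPM over all pull-downs, highest with RA+VitC (log2 0.64 over naive cells, against 2.98 for the exon sum). Ndfip2, an adaptor of ubiquitin ligases, had an exon sum of 9.33 ± 0.32 CPM in naive cells and 65.5 ± 13 in TGFβ iTreg, and an intronic sum of 84.8 ± 1.3 and 120 ± 12.

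In Akap6 the 2 sums moved in opposite directions. Its 3 exon regions summed to 7.95 and 8.02 CPM in naive cells and 23.4 and 23.3 in Treg. Its 57 intronic regions went from 201 and 191 to 155 and 147 (difference 1.91 ± 0.15, edgeR adjusted p 3.1e-36). A large part of the exon gain lay in the region of 3445 bp named above, which also overlaps an intron (1.90 ± 0.22 to 12.4 ± 1.2 CPM). Tiam1, a Rac activator, did so too: its exon sum went from 23.8 ± 1.8 to 49.7 ± 2.9 CPM and its intronic sum went from 530 ± 7.7 to 415 ± 9.9. B4galnt3, a glycosyltransferase, had a difference of 1.28 ± 0.15. On the other side, the exon sum of Fam102a, an oestrogen-induced gene, fell from 188 and 189 CPM in naive cells to 122 and 117 in Treg, 89.4 and 123 with TGFβ alone and 126 and 118 with RA+VitC, while its single intronic region rose from 16.8 and 15.7 to 29.0 and 23.7, 31.0 and 40.4, and 37.8 and 38.0. Dst and Peli2, an E3 ligase of innate signalling, had exon sums close to those of naive cells (23.7 ± 2.0 and 20.2 ± 0.96 CPM; 20.0 ± 0.52 and 16.6 ± 0.92 CPM) and intronic sums that rose from 42.1 ± 0.83 to 90.7 ± 1.7 and from 43.6 ± 1.6 to 90.2 ± 1.2 CPM.

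Other genes had exon differences below the intron differences in iTreg. In Irs2, an insulin receptor substrate, and Igf2bp2, an RNA-binding protein, the exon sum was 23.0 ± 0.45 and 19.9 ± 7.1 CPM, and 35.9 ± 0.91 and 34.6 ± 6.0, while the intronic sum rose from 22.2 ± 1.1 to 67.0 ± 19 and from 51.2 ± 3.8 to 142 ± 4.9 CPM from naive cells to TGFβ iTreg. In Sgk3, a kinase downstream of PI3K, exons fell from 74.1 and 71.9 CPM in naive cells to 50.4 and 51.1 in RA+VitC iTreg and introns rose from 83.9 and 82.2 to 193 and 184 (difference -1.71 ± 0.11, edgeR adjusted p 4.6e-54). In Tcf7l2, a Wnt pathway transcription factor, the exon sum went from 32.3 ± 2.4 to 10.7 ± 0.99 CPM with introns at 118 ± 0.38 and 122 ± 5.4. Its relative Tcf7l1 and Ptprc, the CD45 phosphatase, had exon differences below the intron differences in RA+VitC iTreg minus Treg by 1.74 ± 0.14 and 1.40 ± 0.10. Exons gained more than introns there in Ptpn3, a tyrosine phosphatase (2.22 ± 0.14), Grhl2, an epithelial transcription factor (1.75 ± 0.16), and Braf, a kinase of the ERK pathway (1.75 ± 0.11). In TGFβ iTreg minus Treg, exons gained more in Map2k5 (2.18 ± 0.12), Golgb1, a Golgi protein (1.93 ± 0.26), and Art2a-ps (1.89 ± 0.23), and less in Igf2bp2 (-1.51 ± 0.17), Tcf7l1 (-1.50 ± 0.16) and Slc35b3, a nucleotide-sugar transporter (-1.32 ± 0.19).

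Between the 2 cultures, Ets1 had one of the largest exon gains over introns. Its exon region went from 69.7 and 70.8 CPM with TGFβ alone to 152 and 140 with RA+VitC, while its 9 intronic regions stood at 117 and 127 and at 113 and 115 CPM (difference 1.17 ± 0.14, edgeR adjusted p 5e-14). Pde8a, a phosphodiesterase of cyclic AMP, had a difference of 1.22 ± 0.23, and Ptprf, a receptor phosphatase, 1.15 ± 0.32. Introns gained more in Elovl6, an enzyme of fatty acid elongation: its exon region went from 57.2 and 49.9 to 36.9 and 37.7 CPM and its intronic sum from 323 and 394 to 628 and 618 (difference -1.30 ± 0.15, edgeR adjusted p 4.6e-14). Art2a-ps and the phosphatase gene Ppp5c had differences of -1.48 ± 0.24 and -1.17 ± 0.26. The call on Pde8a was lost without TGFβ iTreg replicate 2 (1.00), on Ppp5c without that library (-1.09) or RA+VitC iTreg replicate 1 (-1.02), and on Ptprf without either TGFβ iTreg replicate 1 (1.27), TGFβ iTreg replicate 2 (1.01) or RA+VitC iTreg replicate 1 (0.97).

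**Figure D5:**
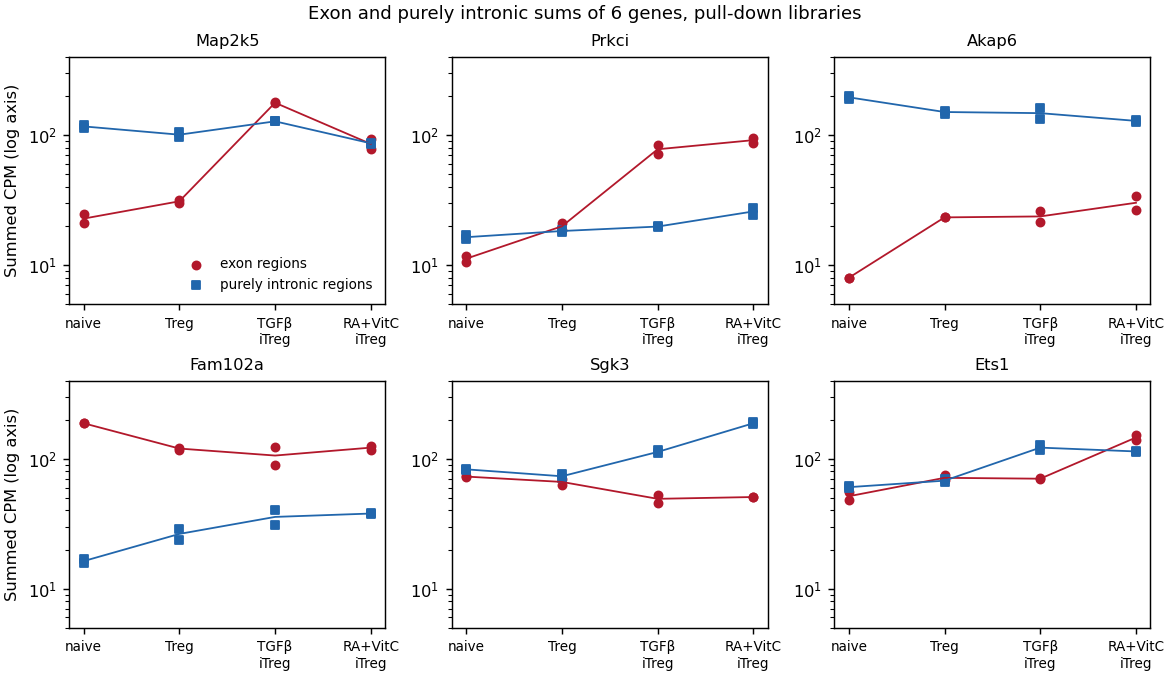
Summed CPM on a log axis over the exon regions (red circles) and the purely intronic regions (blue squares) of 6 genes in each pull-down library; lines join group means. Exon sums of Map2k5 and Prkci climb in both iTreg groups (to 181 and 95.8 CPM), more than their intronic sums, Akap6 and Sgk3 move in opposite directions, Fam102a exons fall as its intronic region rises, and the Ets1 exon region is highest with RA+VitC at 140 and 152 CPM.

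The single exon regions that stood out by size or density were of 2 kinds. The widest lay in Rasa3, a Ras GTPase-activating gene (66561 bp), Fam169b (62890 bp) and Prkch, a protein kinase C of T cells (52489 bp). Prkch held 417 and 431 CPM in naive cells, 457 and 445 in Treg, 417 and 430 with TGFβ alone, and 944 and 871 with RA+VitC, so that RA+VitC iTreg stood apart from 3 groups that were alike. Rasa3 was highest in the sorted cells (423 to 470 CPM) and lower in both iTreg groups (314 to 374). The densest per kb were short regions of Nbeal1 (410 bp, 22.7 CPM per kb over the pull-downs), Mttp, a lipid transfer protein gene (1199 bp, 21.4), and Nampt, an enzyme of NAD salvage (1710 bp, 18.1). Nbeal1 had no read in either naive library, 11 and 6 reads (1.41 and 0.709 CPM) in Treg, 29.8 and 27.4 CPM with TGFβ alone and 8.20 and 6.88 CPM with RA+VitC. The naive floor of 3 reads per library was 0.346 CPM on average. Over that floor the mean of TGFβ iTreg was 82.6-fold, of RA+VitC iTreg 21.8-fold and of Treg 3.05-fold. These ratios leave out the counting error of the means themselves, and Treg had only 11 and 6 reads. Mttp held 58.4 and 66.4 CPM in TGFβ iTreg, 29.9 and 24.8 with RA+VitC, and 4.83 to 8.62 CPM among sorted libraries. Nampt held 44.8 to 66.4 CPM in the iTreg libraries and 7.32 to 10.7 in the sorted ones. The inputs of these 3 stood at 1.92 to 11.2 CPM.

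Over the 6 comparisons, 6983 exon regions (49.1%) were called in none and 81 in all 6. Among the 7253 called at least once, the highest group mean was in RA+VitC iTreg for 2486, in naive cells for 2239, in Treg for 1486 and in TGFβ iTreg for 1042. Pairs of comparisons with no library in common could be set against each other. Of the 1503 exon regions that rose from naive cells to TGFβ iTreg, 977 (65%) were also higher in RA+VitC iTreg than in Treg, beside 16.1% of all tested exon regions, and made up 42.5% of the 2299; 63 were lower there. Of the 1232 that fell, 401 (32.5%) were lower there, beside 10.7%, and made up 26.3% of the 1524. Of the 2759 higher in RA+VitC iTreg than in naive cells, 806 (29.2%) were higher in TGFβ iTreg than in Treg, beside 7.59%, and made up 74.6% of the 1080. Of the 2114 lower, 350 (16.6%) were lower there, beside 6.26%, and made up 39.3% of the 891. Of the 1768 higher in Treg than in naive cells, 206 (11.7%) were also higher with RA+VitC than with TGFβ alone, beside 5.00%, and made up 28.9% of the 712; 41 were lower. Of the 1567 lower in Treg, 72 (4.59%) were lower there, beside 1.60%, and made up 31.6% of the 228. The most abundant regions were called more often than the least abundant in every comparison, and the part of this in the overlaps was not tested.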

How the data were processed

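CMS-IP libraries (pull-down and input) of 4 groups, 2 replicates each, were compared over regions. The table holds raw read counts per region as deposited by the authors, with gene-part annotation on mm9. The submitters' processing notes name MACS2 (2.1.0.20151222), SAMtools (1.7), Trim Galore (0.4.2) and bcl2fastq (2.20.0.442); per the file headers, regions are a union of broad MACS2 peaks at q 0.01. For the aligner, the counter and any pooling before peak calling, versions and settings were not given in the sources used here. Spike-ins were not used here, so values are relative.

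The 8 pull-downs were fitted together with edgeR 4.0.16 (TMM, minimum count 10 in filterByExpr, quasi-likelihood F test, 4 residual degrees of freedom), and p-values were adjusted over all 135412 regions by Benjamini-Hochberg at 0.05. CPM of pull-downs use TMM-scaled totals of the tested regions, those of inputs plain totals of all regions. Exon minus intron differences were tested with a term for each library. On simulated Treg minus naive data over 123585 regions, 81% of 2-fold and 99% of 4-fold changes were recovered, with 8 false calls. Over 5001 genes the interaction recovered 99% and 100%, with 6 false calls. The simulated gene sums all shared 1 spread, the common one of the region fit. Recovery where the spread differs between genes was therefore not tested for the interaction. Changes were planted only in regions and genes above a minimum mean read count. The recovery therefore does not cover sparse regions, such as most of the least abundant group of exon regions (median 8 reads). Only Treg was changed, so recovery in the shallower iTreg libraries was not tested. R 4.3.3, limma 3.58.1, DESeq2 1.42.0, Python 3.11.15, pandas 2.3.3 and matplotlib 3.10.9 were used.

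Regions named were the 5 largest changes in each direction with a mean of 50 reads or more and no overlap between replicates, leaving out predicted and clone names; genes named for exon minus intron differences were the 3 largest in each direction with 100 reads in each sum; listed genes are described by counts and their largest changes, and the 3 widest and 3 densest regions were added. Some regions that these rules take are not reported here. The members and the 15 gene lists were chosen with earlier results of these data known.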

Additional observations from a re-analysis of the deposited data

How the results depend on the processing

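Calls were recomputed with library-size scaling, DESeq2, no filter on low counts, libraries thinned to the shallowest (1648804 reads), a replicate block and each pull-down left out. DESeq2 gave 583 higher and 287 lower exon regions in Treg minus naive, 513 lower in TGFβ iTreg minus naive, 866 lower in RA+VitC iTreg minus naive, 422 higher and 110 lower between the cultures, 316 lower in TGFβ iTreg minus Treg, and 1440 higher and 483 lower in RA+VitC iTreg minus Treg. Thinning gave, in the same order of comparisons, 359 and 277, 933 and 685, 1129 and 970, 325 and 249, 765 and 492, and 927 and 667. Library-size scaling gave 3453 lower in RA+VitC iTreg minus naive, 406 higher and 415 lower between the cultures, and 2872 lower against Treg. The label numbers were not shown to pair the samples (correlation of deviations 0.008 and 0.005), and with the replicate block 1397 were lower in RA+VitC iTreg minus naive, 540 in TGFβ iTreg minus Treg and 922 in RA+VitC iTreg minus Treg; the other counts stayed within 1.5 times. After thinning, falls between the cultures went from 228 to 249, while the other counts of exon regions dropped. What moved the counts was not tested.

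Leaving out 1 library gave 1075 to 1809 higher and 860 to 1608 lower in Treg minus naive (lowest without naive replicate 2), 818 to 1492 and 615 to 1249 in TGFβ iTreg minus naive (without TGFβ iTreg replicates 2 and 1), 2118 to 2885 and 1140 to 2231 in RA+VitC iTreg minus naive (without RA+VitC iTreg replicate 1), 395 to 659 and 76 to 259 between the cultures (without TGFβ iTreg replicates 1 and 2), 582 to 1076 and 406 to 858 in TGFβ iTreg minus Treg (without TGFβ iTreg replicates 2 and 1), and 1667 to 2384 and 668 to 1566 in RA+VitC iTreg minus Treg (without RA+VitC iTreg replicate 1). Gene counts for exon minus intron were 240 to 438 and 213 to 379, 260 to 513 and 190 to 458, 542 to 810 and 489 to 791, 33 to 96 and 26 to 115, 167 to 390 and 117 to 321, and 409 to 670 and 398 to 657. With 50 mean reads in both sums, which tests fewer genes, they were 257 higher in Treg minus naive, 342 and 303 in TGFβ iTreg minus naive, 449 and 483 in RA+VitC iTreg minus naive, and 420 and 423 in RA+VitC iTreg minus Treg.

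Matched differences (percentage points higher, points lower, median log2) ranged, with 1 library left out, over -1.59 to -0.95, -0.32 to 0.1 and -0.017 to -0.008 in Treg minus naive; -1.41 to -0.81, -1.41 to -0.36 and 0.004 to 0.017 in TGFβ iTreg minus naive; -1.94 to -1.31, -2.91 to -1.11 and 0.026 to 0.048 in RA+VitC iTreg minus naive; -0.96 to -0.38, -0.27 to 0.0 and 0.001 to 0.076 between the cultures; -0.79 to -0.33, -1.2 to -0.23 and 0.022 to 0.033 in TGFβ iTreg minus Treg; -1.37 to -0.91, -2.62 to -1.06 and 0.045 to 0.06 in RA+VitC iTreg minus Treg. Thinning moved them to -0.38 and 0.47 points in Treg minus naive, -0.54 points and 0.029 log2 in TGFβ iTreg minus naive, -1.19 and 0.014 in RA+VitC iTreg minus naive, 0.15 and a reversed -0.014 between the cultures, -0.23 and 0.051 in TGFβ iTreg minus Treg, and -1.36 and 0.034 in RA+VitC iTreg minus Treg. Against all other regions, rises differed by -2.82, -2.68, -2.34 and -1.98 points in TGFβ iTreg minus naive, RA+VitC iTreg minus naive, TGFβ iTreg minus Treg and RA+VitC iTreg minus Treg, falls between the cultures by -0.56, and medians by 0.035 between the cultures and 0.003 in TGFβ iTreg minus Treg. The cause was not tested. Exon shares of transcript-overlapping reads were 16.76%, 16.8%, 17.07% and 16.95% in the order of groups, and exon over intron reads per kb 1.014, 1.0, 1.006 and 1.029, with inputs at 0.935, 0.942, 0.935 and 0.929. Of the calls on named and listed regions and genes, 131 were lost and 249 kept with DESeq2, 70 and 218 after thinning, 56 and 327 with the replicate block, 28 and 355 with library-size scaling, 10 and 373 without the filter, and 31 to 62 were lost with 1 library left out. Lost and kept calls add up to fewer after thinning than in any other setting. Apart from 1 reversal, the remaining calls are not counted there, so 218 is not a share of all these calls. One call reversed, an exon region of Ccr9 in Treg minus naive that stood at 0.04 log2 after thinning (adjusted p 0.97 by edgeR).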
